A study of Homo sapiens with 6 samples.

Results

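The replication-dependent histone genes of the human genome lie in clusters, and the H3K27ac peaks over those clusters were described in THP-1 cells and in M2 macrophages. The peaks were chosen by position alone. They are all H3K27ac peaks that overlapped 3 windows of genome build hg19, which are named here the HIST1 proximal window (chromosome 6, 26 to 26.3 Mb), the HIST1 distal window (chromosome 6, 27.75 to 27.9 Mb) and the HIST2 window (chromosome 1, 149.75 to 149.9 Mb). The windows held 62 of the 56420 M2 peaks and 43 of the 31444 THP-1 peaks. THP-1 is a human monocytic leukaemia line. M2 names alternatively activated macrophages, and the labels do not say from which cells these were derived. Both were grown in the same serum-containing medium and no treatment is given for either. The series has 6 libraries. Those for the factor YY1 and the inputs are not used here, and H3K27ac was measured by chromatin immunoprecipitation and sequencing in 1 library per cell type with the same antibody. Nothing therefore measures the spread between cultures, and no test between the cell types and no p-value is given.

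Each S phase needs a new set of histones, and most of it comes from these clusters. Their genes encode the linker histone H1 and the core histones H2A, H2B, H3 and H4 in many near-identical copies, have no introns as a rule, and give mRNAs that end in a stem-loop in place of a poly(A) tail. The factor NPAT drives their transcription in the histone locus body, a nuclear compartment that forms on the clusters. H3K27ac, acetylation of lysine 27 of histone H3, marks active promoters and enhancers. The clusters are thus both the source of the marked protein and a place where the mark can be found. The neighbourhood on chromosome 6 is also rich in transfer RNA genes.

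By gene order in RefSeq's table of GRCh38.p14, 59 protein-coding histone genes lie in these clusters. The HIST1 proximal stretch, between TRIM38 and BTN3A2, holds 32 of them, among them 5 linker histone genes (H1-1, H1-2, H1-3, H1-4 and the testis gene H1-6), 4 H2A, 8 H2B, 7 H3 and 8 H4 genes.  The HIST1 distal stretch, between ZNF184 and OR2B2, holds 16 genes: H1-5, 5 H2A genes (H2AC13 to H2AC17), 4 H2B, 3 H3 and 3 H4 genes. The HIST2 stretch, between FCGR1A and BOLA1, holds 11: H2AC18 to H2AC21, H2BC18 and H2BC21, H3C13 to H3C15, and H4C14 and H4C15. FCGR1A overlaps H2BC18 in GRCh38.p14. Other genes lie among the histone genes: HFE in the HIST1 proximal stretch, transfer RNA genes in both HIST1 stretches, and LOC124904411 in the HIST2 stretch. The hg19 windows may also reach bounding genes such as FCGR1A. A peak in a window therefore need not belong to a histone gene. The peak positions are in hg19 and no hg19 gene positions were used here, so no peak is assigned to a gene, and neither the gene content of the windows nor the cell types could be checked against genes in the peak lists.

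Short promoter motifs are shown here because 3 of the 5 searched were found mostly in 1 or 2 histone classes, while CCAAT and TATAAA were spread over more of them. Of the 59 genes, 55 have a promoter of 250 bases before to 50 after the start in RefSeq's table; H4C1, H4C3, H3C11 and H3C12 have none there. The octamer ATTTGCAT, the binding motif of OCT1, stood on either strand in 11 of 14 H2B promoters (78.6%), against 1.80% of all 27305 promoters of the table. None of the 5 motifs searched contains another. The octamer was also in 9 of 13 H2A promoters (69.2%), and 8 H2A genes lie head to head with an H2B gene so closely that the promoter stretches overlap. Examples of H2B, with the octamer in capitals, are those of H2BC21 (GRCh38.p14, chr1:149886695-149886754, minus strand), H2BC8 (chr6:26216703-26216762, minus strand) and H2BC4 (chr6:26124016-26124075, minus strand):
H2BC21: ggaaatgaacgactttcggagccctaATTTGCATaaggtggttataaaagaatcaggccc
H2BC8: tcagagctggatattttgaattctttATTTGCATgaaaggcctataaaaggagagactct
H2BC4: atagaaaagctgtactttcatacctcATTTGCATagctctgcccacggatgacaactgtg

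The octamer on the gene's strand began 45 to 49 bases before the start in 6 H2B genes, H2BC21 and H2BC8 among them, and 108 to 123 bases before it in 4, H2BC4 among them. In H4 promoters the core of the element called site II, GGTCCG, to which the factor HINFP binds, was present in 10 of 11 (90.9%), against 11.2% of all promoters. It began 44 to 47 bases before the start in each of the 10. The stretches of H4C14 (GRCh38.p14, chr1:149832585-149832642, plus strand), H4C8 (chr6:26285549-26285606, minus strand) and H4C11 (chr6:27824019-27824076, plus strand) stand for the 3 clusters, with the core in capitals:
H4C14: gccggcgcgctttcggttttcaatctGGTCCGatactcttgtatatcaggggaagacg
H4C8: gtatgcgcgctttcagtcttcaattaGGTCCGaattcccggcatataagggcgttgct
H4C11: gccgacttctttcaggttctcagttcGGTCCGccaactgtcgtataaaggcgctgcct

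H4C14 and H4C15 have identical promoters over all 300 bases of the table, and reads from within such copies cannot be placed with certainty. The entries of H3C4 and H2AC7 are also identical, so the 1 H3 promoter of 11 with the octamer may not be a separate case. In linker histone promoters the H1 box AAACACA was present in 6 of 6, against 5.76% of all promoters, and in 5 of them it began 105 to 119 bases before the start. Those of H1-2 (GRCh38.p14, chr6:26056557-26056615, minus strand) and H1-4 (chr6:26156186-26156244, plus strand) show the box in capitals within a longer alike stretch:
H1-2: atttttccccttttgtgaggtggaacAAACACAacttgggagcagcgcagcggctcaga
H1-4: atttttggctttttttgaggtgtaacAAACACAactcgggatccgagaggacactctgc

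CCAAT was found in all 6 H1, 13 H2A, 14 H2B and 11 H3 promoters and in 2 of 11 H4 promoters, against 35.7% of all promoters. TATAAA was in 36 of the 55 (65.5%), against 11.95%. The member promoters had a median GC content of 42.3%, and all promoters 58.3%. A match of letters is not evidence of a bound site, and these positions are in another build than the peaks and were not set against them.

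**Figure D1:**
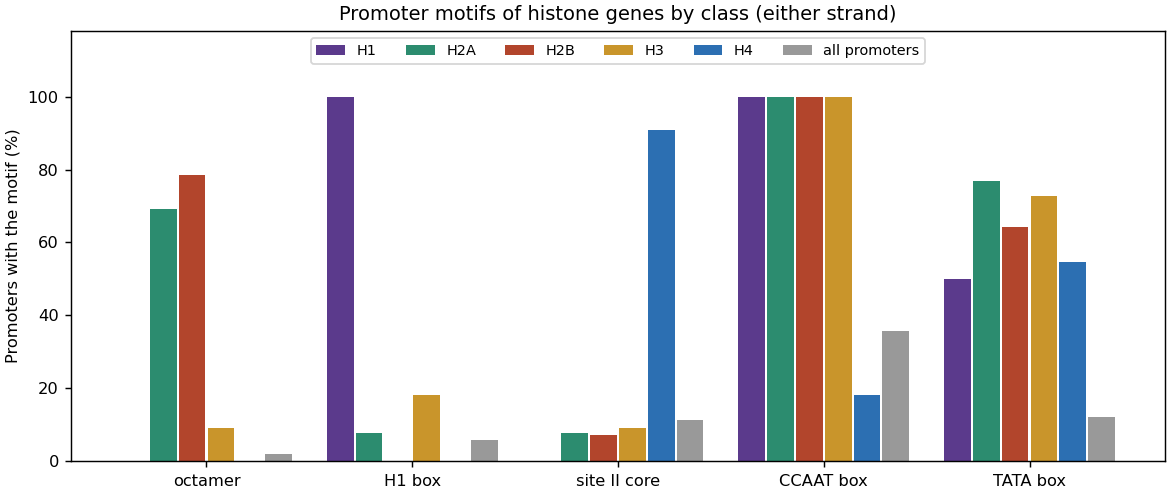
Share of promoters (vertical axis, percent) that hold each of 5 motifs on either strand, for the H1 (n = 6), H2A (13), H2B (14), H3 (11) and H4 (11) genes and all 27305 promoters of the table (grey). The octamer bars stand high in H2A and H2B, the H1 box bar in H1 and the site II core bar in H4, while the CCAAT box is at 100% in the classes other than H4 (18.2%).

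All 3 windows were dense in H3K27ac peaks in both cell types. M2 peaks covered 56.2 of the 600 kb (9.36%) and THP-1 peaks 39.6 kb (6.61%), against 2.02% and 0.922% along the chromosomes. The ratio of the covered lengths, M2 to THP-1, was 1.42, beside 2.19 for the whole lists. It turned to 0.964, beside 1.70, when the M2 list was shortened to its 31444 peaks of highest -log10 q, the length of the THP-1 list. In equal tiles of 300 kb, 0.583 percent of all tiles held at least as many M2 peaks as the HIST1 proximal window (30), and 2.52 percent at least as many THP-1 peaks (16). For tiles of 150 kb the shares were 2.63 percent (M2, 14 peaks) and 2.35 percent (THP-1, 10 peaks) for the HIST1 distal window, and 0.737 percent (M2, 18 peaks) and 0.227 percent (THP-1, 17 peaks) for the HIST2 window. By covered sequence in place of peak number each share was larger. It was 3.88 percent (M2) and 7.10 percent (THP-1) for the HIST1 proximal window. The HIST1 distal window had 4.26 and 3.15 percent, and the HIST2 window 2.55 and 0.252 percent. The tiles include gene-poor sequence, so they show density and nothing particular to histone genes.

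In the clusters about as many THP-1 peaks met an M2 peak as did not, and most M2 peaks met no THP-1 peak. Among the 43 THP-1 peaks, 22 shared at least 1 bp with an M2 peak, a share of 51.2% (exact 95% binomial interval 35.5 to 66.7, counting error only), against 75.3 percent of all THP-1 peaks. The other 21 had no M2 counterpart, against 24.7 percent of all THP-1 peaks. In the other direction 21 of 62 M2 peaks were shared, 33.9% (22.3 to 47.0), which is near the 37 percent of all M2 peaks, and 41 were not, against 63 percent. The sequence inside peaks of both lists was 15.1 kb, which is 38.1% of what THP-1 peaks covered and 26.9% of what M2 peaks covered, where the whole lists have 65.8% and 29.97%. The counting interval of the THP-1 share lay below the share of the whole list, and that of the M2 share spanned it. With a -log10 q of at least 10 the M2 share was 15.4% (25.8% in the whole list), and in lists of equal length the THP-1 share was 30.2% (59.6%). Neighbouring peaks are not independent, and no test was made.

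**Figure D2:**
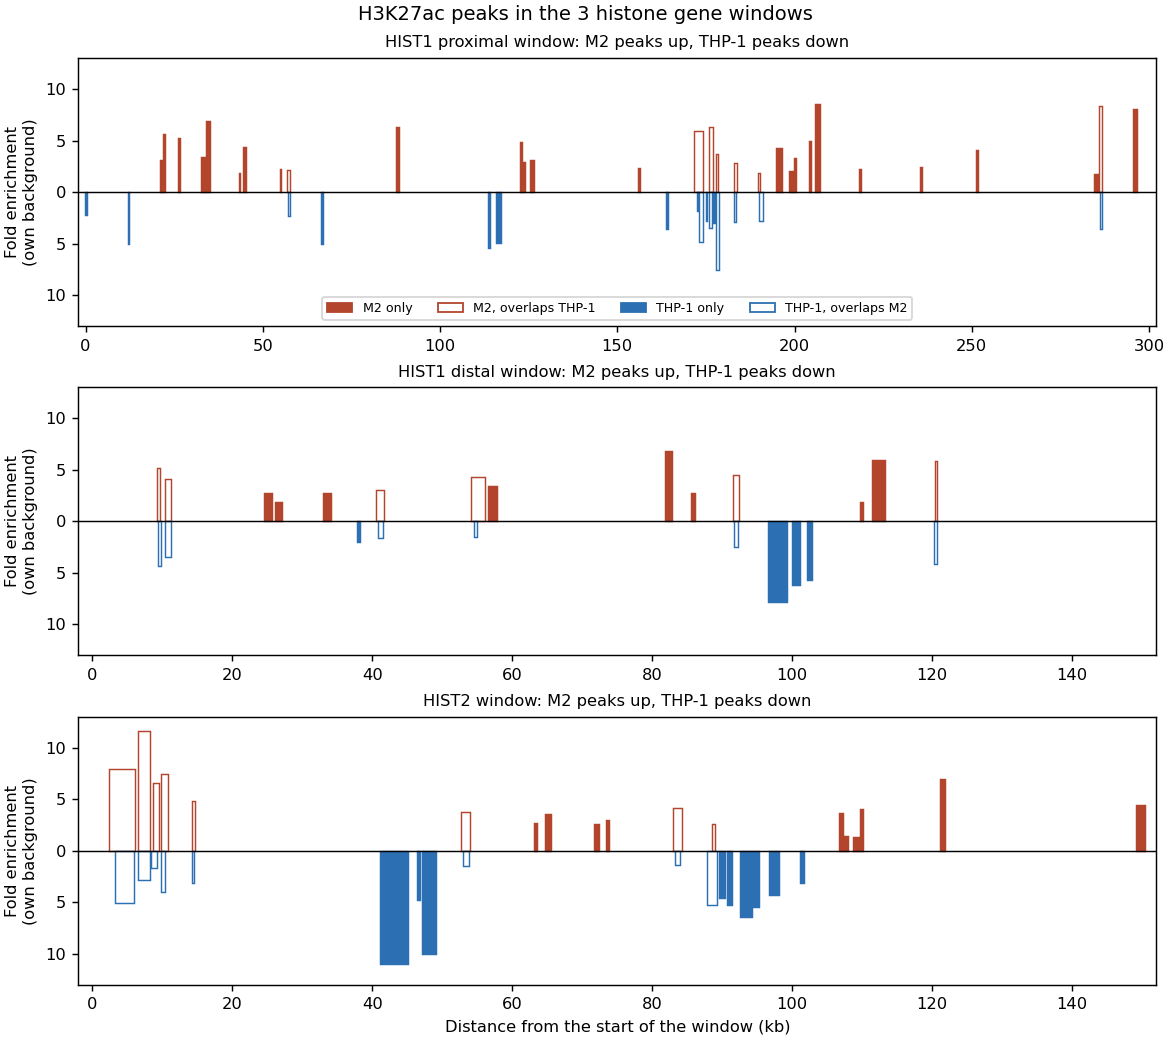
Peaks in the HIST1 proximal, HIST1 distal and HIST2 windows, drawn to scale along the distance from the window's start (kb), M2 upwards and THP-1 downwards, with the authors' fold enrichment over each list's own background as height. Filled bars overlap no peak of the other list (41 M2 and 21 THP-1 peaks), and open bars do (21 and 22); filled bars of one colour come in runs.

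In the HIST1 proximal window M2 peaks covered more sequence than THP-1 peaks. Their 30 peaks covered 25.2 kb and the 16 THP-1 peaks 9.88 kb, a ratio of 2.55, beside 2.19 for the whole lists and 2.18 for chromosome 6. Of the M2 peaks 23 overlapped no THP-1 peak (76.7%, against 63.0% of all M2 peaks). Of the THP-1 peaks 8 overlapped no M2 peak (50%, against 24.7% of all THP-1 peaks). M2 peaks were 318 to 2615 bp wide and enriched 1.73-fold to 8.59-fold, and THP-1 peaks were 345 to 1348 bp wide and enriched 1.87-fold to 7.59-fold. The M2-only peaks came in runs, with no THP-1 peak between them. A run of 8 peaks spanned 34.1 kb from 26020939 to 26055056, another of 4 peaks spanned 33.9 kb from 26122452 to 26156332, and the longest, of 9 peaks, spanned 90.7 kb from 26194902 to 26285603.

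The M2 peak of highest fold enrichment in this window lay in that longest run. Fold enrichment is the signal at the summit over the local background, from the surroundings or a control, as the authors' peak caller gave it. The peak spanned 26205698 to 26207214 (1517 bp), was enriched 8.59-fold with a -log10 q of 43.2, and lay 14707 bp from the closest THP-1 peak. Another M2-only peak, at 26295571 to 26296560, was enriched 8.04-fold, and one at 26034014 to 26035177 was enriched 6.93-fold. M2-only peaks at 26021856 to 26022442 and at 26026060 to 26026558 were enriched 5.63-fold and 5.25-fold. An isolated M2-only peak at 26087678 to 26088522, 6.36-fold, was 20791 bp from any THP-1 peak. It rested on 21 fragments, where the other M2-only peaks of the window with a recovered depth had 37 to 135.

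THP-1-only peaks in this window were narrower, with a median width of 481.5 bp against 710 bp for M2-only peaks, and rested on few fragments. The 8 of them had 13 to 22 fragments over the summit (median 18) and a -log10 q of at most 6.98. This is near the whole list, where THP-1-only peaks had a median of 21 fragments and a median -log10 q of 6.20. Their median width there was 536 bp, against 591 bp for all M2-only peaks. The highest in fold enrichment were at 26113636 to 26114208 (5.42-fold), 26011960 to 26012304 (5.06-fold), 26066539 to 26066886 (5.04-fold) and 26115781 to 26117128 (4.94-fold). Shared sites lay mostly in 1 stretch, 26171705 to 26190990, which held 5 of the 7 shared M2 peaks and 6 of the 8 shared THP-1 peaks. There the widest M2 peak, 26171705 to 26174319 (2615 bp, 5.90-fold), overlapped THP-1 peaks at 26172444 to 26172808 and 26173010 to 26174259, and the THP-1 peak of highest fold, 26177820 to 26178583 (7.59-fold), overlapped a narrower M2 peak of 395 bp and 3.70-fold. At the far end of the cluster the THP-1 peak of highest -log10 q, 26286162 to 26286702 (29.4), overlapped an M2 peak at 26285941 to 26286695 with a -log10 q of 43.1.

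In the HIST1 distal window 14 M2 peaks covered 13.8 kb, 1.63 times the 8.48 kb that 10 THP-1 peaks covered. Fold enrichment ran from 1.87 to 6.80 in the M2 peaks and from 1.48 to 7.81 in the THP-1 peaks. The M2 peak highest in both fold enrichment and -log10 q, at 27831809 to 27832858 (6.80-fold, -log10 q of 50.04), had no THP-1 counterpart within 8885 bp. It rested on 127 fragments. The next M2-only peak by fold was at 27861437 to 27863315 (5.99-fold, 89 fragments), and the others were enriched 1.87-fold to 3.39-fold. THP-1 cells instead had 3 peaks in a row at 27846491 to 27852778 that no M2 peak overlapped. The first of these, 27846491 to 27849249, was the widest THP-1 peak of the window at 2759 bp, wider than 97.5% of the THP-1 list, and had the window's highest THP-1 fold (7.81) on 28 fragments. The other 2 were enriched 6.15-fold and 5.66-fold on 16 and 15 fragments. The nearest M2 peak to the row, 4166 bp away, was itself shared.

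Of the 20 pairs of peaks in the windows in which each peak overlapped only the other, the pair in which the M2 peak was wider by the largest factor lay in this window. The M2 peak at 27804104 to 27806113 was 2010 bp wide and the THP-1 peak within it 555 bp, a ratio of 3.62. The M2 summit held 158 fragments and the THP-1 summit 82, but these summits lay 778 bp apart. The window's least wide M2 peak relative to its partner, at 27759295 to 27759634, had 340 bp against 486 bp, with 17 and 15 fragments.

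In the HIST2 window the order of the cell types was the reverse, and THP-1 peaks covered more sequence. The 17 THP-1 peaks covered 21.3 kb and the 18 M2 peaks 17.1 kb, a ratio of M2 to THP-1 of 0.804, while chromosome 1 as a whole had 1.98. The first 5 peaks of each list, between 149752431 and 149764590, overlapped each other. They included the M2 peaks of highest -log10 q (50.8, at 149752431 to 149756131, 3701 bp) and of highest fold (11.6, at 149756493 to 149758254), and the THP-1 peak of highest -log10 q (64.5, at 149753171 to 149755962). That THP-1 peak ranked above 98.8% of its list by -log10 q. None of these peaks is assigned to a gene. They may belong to a gene other than a histone gene, such as FCGR1A, which bounds the stretch.

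The rest of the HIST2 window was split between the lists. THP-1 cells had a run of 3 peaks at 149791155 to 149799032 that covered 6.29 kb, without an M2 peak. Its first peak, 149791155 to 149795106, was 3952 bp wide and enriched 10.96-fold on 32 fragments, above 99.2% of the THP-1 list in width and 99.1% in fold. Its last, 149797131 to 149799032, was enriched 10.02-fold on 43 fragments. A second THP-1-only run of 6 peaks, 149839505 to 149851631, covered 6.16 kb on only 12 to 23 fragments a summit, enriched 3.16-fold to 6.41-fold. M2 cells had a run of 4 peaks at 149813114 to 149823800 with 141 to 211 fragments and one of 6 peaks at 149856661 to 149900353 with 40 to 225 fragments. The M2 peaks of that last run at 149871153 to 149871823 (6.95-fold) and 149899067 to 149900353 (4.46-fold) were 19521 and 47435 bp from any THP-1 peak. HIST2 genes include near-identical copies, H4C14 and H4C15 among them, and the treatment of reads with several matches is not stated, so peaks of this window are uncertain to that degree.

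**Figure D3:**
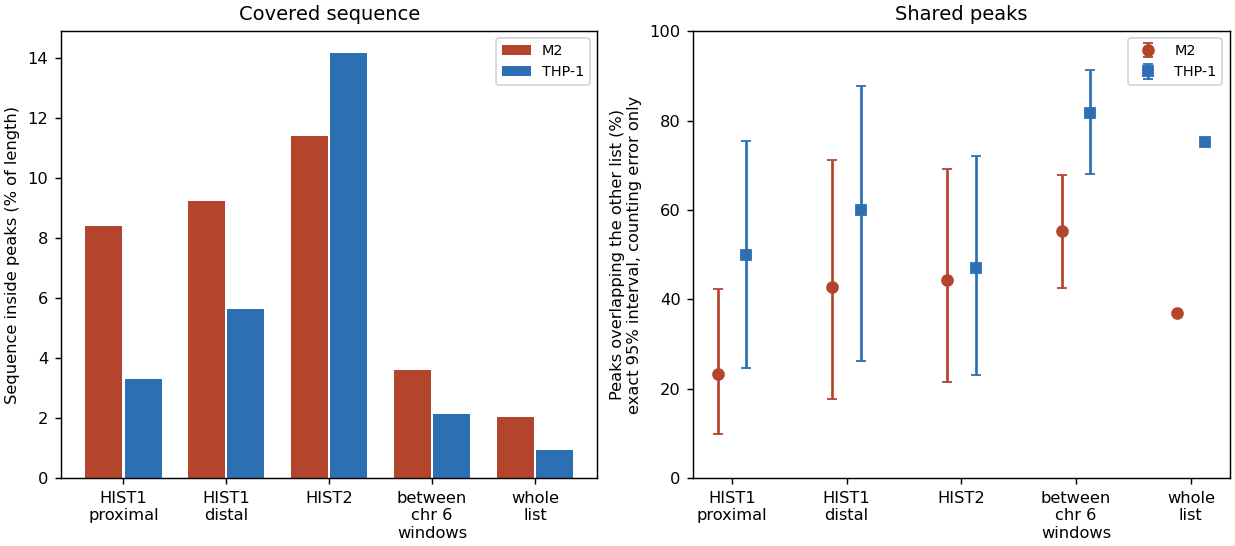
Left, percent of each region's length inside M2 (red) and THP-1 (blue) peaks; right, percent of peaks that overlap the other list, with exact 95% intervals that cover counting error only. THP-1 exceeds M2 in covered sequence in the HIST2 window alone (14.2% against 11.4%), and the THP-1 shared share is 47.1% to 60.0% in the 3 windows, 81.6% between the chromosome 6 windows and 75.3% in the whole list.

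The stretch between the 2 chromosome 6 windows served as a local comparison. It is 1450 kb long and holds butyrophilin genes, zinc finger genes, transfer RNA genes and 5 further histone genes (H2AC11, H2AC12, H2BC11, H2BC12 and H4C9), by the same gene order. It had 65 M2 and 49 THP-1 peaks, which is 4.48 and 3.38 per 100 kb, against 10.3 and 7.17 in the windows. Of its THP-1 peaks 81.6% (68.0 to 91.2) overlapped an M2 peak, and of its M2 peaks 55.4% (42.5 to 67.7) overlapped a THP-1 peak. The windows had 51.2% (35.5 to 66.7) and 33.9% (22.3 to 47.0), and the M2 intervals of stretch and windows overlap. These intervals cover counting error only. Chromosome 6 as a whole had 72.1% (THP-1) and 36.6% (M2), so its M2 share was nearer to that of the windows than to that of the stretch. In flanks as long as the windows on either side, which in part repeat that stretch, the shares were 70.8% (THP-1) and 56.1% (M2).

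The number of fragments behind each peak could be recovered. It follows from the fold enrichment and p-value of a peak, together with the local background, meaning the fragments expected at the summit from the surroundings or a control. These are an inference and not counts the authors gave. Over the M2 summits of the windows the median was 72 fragments (range 12 to 225, 60 of 62 peaks with a single solution), and in the whole M2 list it was 39. A THP-1 summit in the windows had a median of 28 fragments (12 to 183, all 43 peaks), and the whole THP-1 list had 40. The median was thus above that of the list in M2 cells and below it in THP-1 cells.

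The median local background in the windows differed from that of the whole list in opposite directions in the cell types. Divided by the lowest of its list, the background at M2 summits had a median of 7.37 in the windows (range 1 to 71.2) and 2.38 over the whole list. THP-1 summits had a median of 3.15 in the windows (range 1 to 64.2) and 5.04 over the whole list. The THP-1 upper quartile was instead higher in the windows, at 15.8 against 12.7. The M2 background was at least 10 times the lowest at 23 of 60 M2 summits (38.3%), against 8.29 percent of all M2 summits, and at 2 of 62 summits between the chromosome 6 windows. By window these were 9 of 29 M2 summits in HIST1 proximal, 3 of 13 in HIST1 distal and 11 of 18 in HIST2. Of the 23, 19 were M2-only peaks, against 2071 of all 4603 such summits in the M2 list. The highest value, 71.2, was at the HIST2 peak 149858750 to 149859495, whose 225 fragments gave only a 1.37-fold enrichment. The median fold enrichment of M2 peaks was accordingly lower in the windows (3.71) than in the list (5.42), although their median -log10 q was higher (16.8 against 13.4).

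In the THP-1 list the background was higher at shared than at THP-1-only peaks, in the windows and over the whole list. At the 22 shared peaks it had a median of 12.6 times the lowest (1.299 to 64.2), and at the 21 THP-1-only peaks a median of 1.46 (1 to 16.9). Over the whole THP-1 list the medians were 7.05 and 2.32. Of 13 THP-1 peaks with a background of at least 10 times the lowest, 12 were shared (92.3%), near the 96.6% of the whole list. Of 30 with less, 10 were shared (33.3%), where the whole list has 66.0%. Background of at least 10 times the lowest was about as frequent in the windows (30.2%) as in all THP-1 peaks (30.4 percent). The exception among THP-1-only peaks was at 27787763 to 27788201, with 61 fragments over a background of 16.9 times the lowest and an enrichment of 2.01-fold.

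M2-only peaks went the other way. Their median background was 9.81 times the lowest (39 of 41 peaks solved) and that of shared M2 peaks 4.28, whereas in the whole M2 list M2-only peaks had the lower background (2.06 against 3.30). They also had more fragments, with a median of 81 against 62 at shared M2 peaks, while the whole list has 31 and 62. Of the 39 solved M2-only peaks, 19 had a background of at least 10 times the lowest and 20 had less. In the whole M2 list 2071 M2-only peaks had that much and 32821 had less. Among THP-1-only peaks 1 of 21 reached that level, against 321 of 7761 in the whole list. Neither THP-1 fragments nor THP-1 background can be recovered at M2-only sites, since no THP-1 peak lies there. A missing THP-1 peak at such a site therefore does not show that acetylation was absent.

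**Figure D4:**
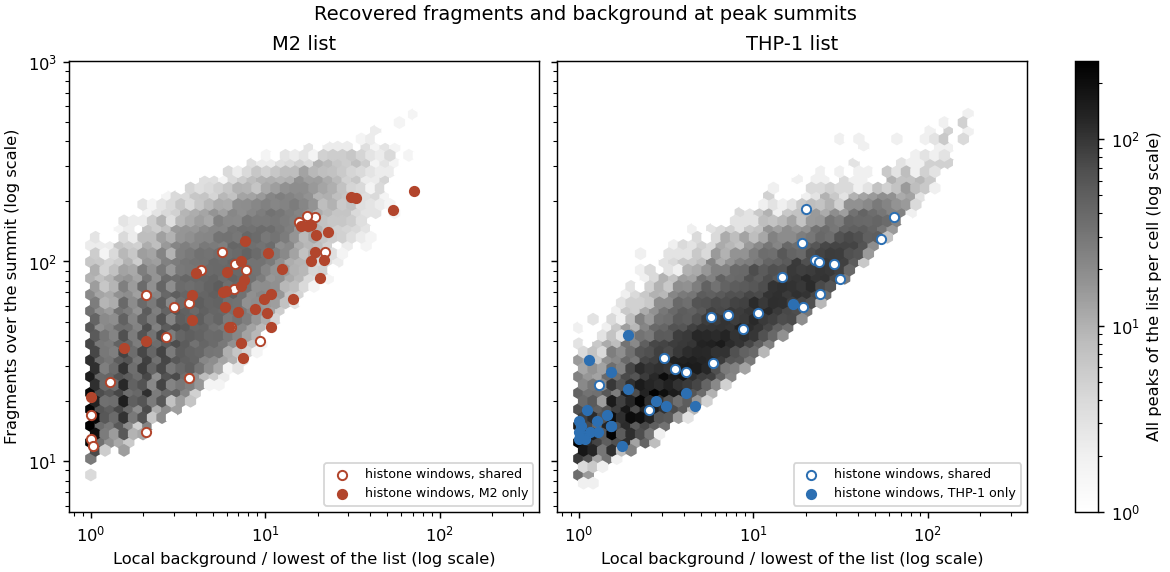
Fragments over the summit (vertical, log scale) against local background divided by the lowest of the list (horizontal, log scale), for all peaks (grey cells, darker where more peaks fall) and the peaks of the histone windows (filled if in 1 list only, open if shared). Filled M2 points spread from a background of 1 to 71.2 (median 9.81, with a median of 81 fragments). Filled THP-1 points gather at low background (median 1.46) and few fragments (median 17). All THP-1-only peaks of the list have medians of 2.32 and 21.

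At shared sites both quantities could be set side by side, each taken at the summit of its own peak. In each of the 20 pairs in which a peak overlapped only the other, the background relative to the lowest of its list was higher in THP-1 cells, with a median M2 to THP-1 ratio of 0.407 (0.190 to 0.927). Over all 15734 such pairs with both values THP-1 was higher in 83.7 percent, and the median ratio was 0.469. The fragments over the summit, scaled as in peak calling and divided by the same lowest background, were higher in M2 cells in 3 of the 20 pairs, against 45.3 percent of all pairs. Their median ratio was 0.726 (interquartile range 0.542 to 0.868), and over all pairs 0.937 (0.647 to 1.37). This order depends on the scaling. With the fragments as recovered, M2 had more in 9 of the 20 pairs, THP-1 in 10 and 1 was tied, against 63.9 percent of all pairs with more in M2. The total depth of the libraries is unknown, so neither scale is given preference. By window, on the scaled values, M2 was higher in 0 of 6 pairs in HIST1 proximal, 2 of 6 in HIST1 distal and 1 of 8 in HIST2. The summits of a pair lay within 200 bp of each other in 2 of 6, 5 of 6 and 8 of 8 pairs of these windows. That is 15 of the 20 pairs (75%), against 74.1% of all 15927 pairs. In width M2 exceeded THP-1 in 14 of the 20 pairs, which is 70% and near the 69.1 percent of all pairs.

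The pair at the far end of the HIST1 proximal window shows how these quantities come together. The M2 summit held 91 fragments over a background of 4.28 times the lowest, which gave 8.35-fold, and the THP-1 summit 124 fragments over 19.1 times the lowest, which gave 3.60-fold. The largest ratio in favour of M2 was 1.68, at the HIST2 pair at 149756493 to 149758254, with 68 M2 and 31 THP-1 fragments. The smallest was 0.325, at the HIST2 pair at 149838542 to 149839022, with 14 and 33 fragments, where the M2 peak was also the narrower (481 against 1394 bp). At the shared HIST2 peak 149802698 to 149803973 both lists had 167 fragments, and the enrichment was 3.71-fold in M2 cells and 1.47-fold in THP-1 cells, over a background of 19.2 and 64.2 times the lowest. The part of background in which sites were called in 1 cell type only was not tested.

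**Figure D5:**
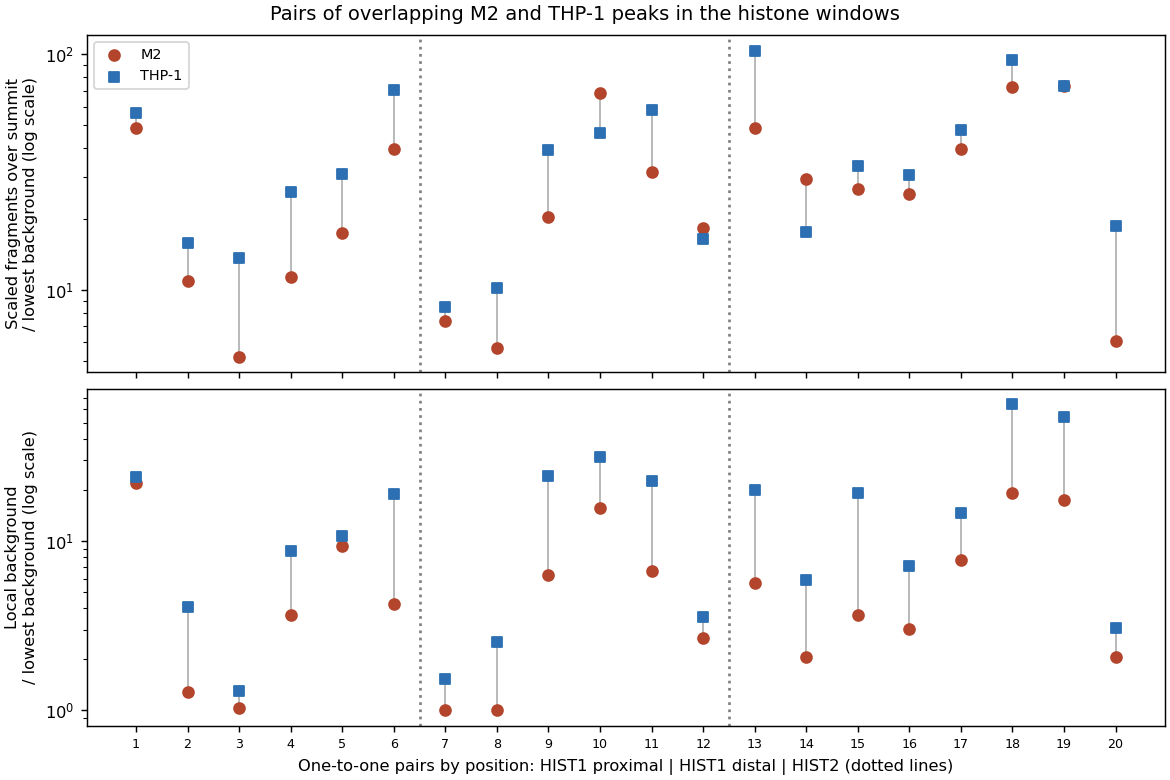
The 20 pairs of overlapping M2 (red circles) and THP-1 (blue squares) peaks in order of position within the 3 windows, with fragments over the summit, scaled and divided by the lowest background of the list (top, log scale), and local background divided by the same lowest value (bottom, log scale). The THP-1 background is above that of M2 in 20 of 20 pairs, and the scaled M2 fragments are above those of THP-1 in 3.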

How the data were processed

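Per the submitters' processing notes, the tools were Bowtie2 (an aligner) and MACS2 version 2.1.0 (a peak caller) and the build was hg19; neither the settings nor the use of the input is stated there. The authors deposited 1 peak list per H3K27ac library, without a header; peak names do not start at 1, so a list may hold part of what was called. Fold enrichment (a ratio over local background), -log10 p, -log10 q and the score are the authors' deposited values, of which the score was not used. The Y chromosome was left out. Peaks counted in a window if they overlapped it, and as shared with at least 1 bp in common.

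Fragments (pileup) and background were solved from fold, as pileup plus 1 over background plus 1, and a Poisson p-value. With the pileup scaled by 0.842 (M2) or not scaled (THP-1), a whole number of fragments within 0.02 resulted for 99.98% and 100% of peaks; at a typical other scale 6.67% of a sample of low peaks gave one in each list. The lowest background was 1.94 (M2) and 1.77 (THP-1). The solver and the overlap step were tested on simulated peaks. Python 3.11.15 with scipy 1.17.1 was used.

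The windows, gene lists and comparisons were chosen with earlier results of these data known. The peaks named were taken, per window and list, from the 3 widest, those of highest fold and -log10 q, up to 6 in 1 list only, and the pairs of extreme width ratio; runs of peaks and a few further peaks were named after their values were seen. Protein sequences and peaks at gene starts were planned and not made, as no protein table and no hg19 annotation was used here.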

Additional observations from a re-analysis of the deposited data

How the results depend on the processing

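Each cell type has 1 library, so nothing here measures biological spread, and lists hold no reads. No paired analysis was possible because each group has 1 sample and no test was made. With a -log10 q of at least 10 the windows held 39 M2 and 12 THP-1 peaks, 15.4% of the M2 peaks were shared (25.8% in the whole list) and the covered-length ratio of M2 to THP-1 was 2.33 (3.003 in the whole lists). In lists of equal length 37 M2 peaks remained in the windows, 30.2% of THP-1 peaks were shared (59.6% in the whole list), and the covered-length ratio turned to 0.964 (1.70 in the whole lists). Which cell type has more covered sequence in the 3 windows together thus depends on list length. Without the HIST1 proximal window 32 M2 and 27 THP-1 peaks were left and the covered-length ratio was 1.04. Without the HIST2 window 26 THP-1 peaks were left and the ratio was 2.13. The size of the ratio thus also depends on which windows are taken. Among peaks with a background under 10 times the lowest, a setting chosen after seeing the data, there were 37 M2 peaks and 33.3% of THP-1 peaks were shared (63.5% in the whole list). Here both lists were limited to such peaks, whereas the 66.0% given above counts overlap with all M2 peaks. The count of pairs with more M2 fragments was 9 without scaling, also chosen after seeing the data. In each setting computed for both, the windows' THP-1 peaks were shared to a smaller share than the whole list's. Merging peaks within 500 bp left 50 M2 and 35 THP-1 peaks, and windows widened by 50 kb held 86 and 57. The covered-length ratio was 1.43 and 1.44 in these settings. With 50% coverage 27.4% of M2 and 46.5% of THP-1 peaks were shared, and within 1000 bp 35.5% and 58.1%. On the gene's strand alone the H1 box was in 83.3% of H1 and the octamer in 71.4% of H2B promoters. Counting by summit, a tolerance of 0.01 and shifted tiles left values close to those reported.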
